A study of Solanum lycopersicum with 6 samples.

Results

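The genes described here had no read at all in the tomato fruit called jmj7. They are the 100 most abundantly read of such genes in wild-type fruit wall, within the authors' deposited table and after 4 genes were left out. Tomato (Solanum lycopersicum) pericarp, the fleshy wall of the fruit, was taken from the equator of greenhouse-grown fruit at 38 days after anthesis, and its RNA was sequenced. One group was wild type (WT) and the other consisted of transgenic lines labelled jmj7, both in the Ailsa Craig background, with 3 libraries each. The series title ties the gene to a histone demethylase, an enzyme that takes methyl groups off histones, and to fruit ripening. The labels do not say how the lines were made, which line gave which library, or whether the libraries came from separate plants, so the spread between libraries may be technical. The columns taken as jmj7 carry a prefix found in no sample label. They were assigned by elimination, as WT was the other group of 3, with the number in the header as the replicate number, and every direction below rests on that. The targeted gene was not analysed here and gave no check of this assignment.

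The members were chosen by their readout. Of 8703 rows in the authors' deposited table, 701 had 0 reads in each of the 3 jmj7 libraries. After 4 genes were left out by the rule, the other 697 were ranked by WT reads summed over 3 libraries and the first 100 were kept. The low jmj7 level and the high WT level are therefore the choice itself and not a finding, and no test is given for either. At the edge of the choice, Solyc07g008430.2 had 213 WT reads at rank 99 and Solyc01g067510.3 had 207 at rank 100. Just outside, Solyc04g077690.2 had 206 WT reads and Solyc07g064370.1 had 204.

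As background, tomato fruit passes from a green stage, with chloroplasts, growing walls and a cuticle that is still being laid down, to a ripe stage in which chloroplasts become chromoplasts and walls soften. Many genes of the green stage are switched off on the way. The cuticle is built by the epidermis from cutin, a polyester that is assembled from acyl glycerols outside the cell. Tomato identifiers of the Solyc series give the chromosome in the digits after the prefix, and then a locus number that runs along it, usually in steps of 10, so that close numbers mean neighbouring genes. The sampling age was shared by WT and jmj7, so a difference in ripening stage and other effects of the genotype cannot be told apart.

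The authors' table holds only genes that they had already selected, whose smallest log2 fold change was 1.00 in size and whose largest p-value was 0.0499. Library totals, recovered from the deposited FPKM (fragments per kilobase of gene and per 1e6 reads), ranged from 19005739 to 23188547 in WT and from 19758948 to 27661614 in jmj7. The table's rows held 39.5% to 39.7% of these totals in WT and 55.1% to 55.4% in jmj7. Summed over each group, the totals were 62472686 for WT and 67942015 for jmj7, so by these totals the group without reads was the more deeply sequenced one. The deposited size factors, on which the bounds rest, run the other way, at 1.16, 1.07 and 1.31 for WT and 1.07, 0.759 and 0.790 for jmj7. Silence here means 0 reads in 67942015, which allows up to 0.0442 reads per 1e6 reads when 3 reads over the group are taken as the limit. Such limits cover counting error only.

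Complete silence was rare at these WT levels. Of 5510 table rows with at least the 207 WT reads of the last member, 104 (1.89%) had 0 reads in jmj7, the 4 left-out genes included. Another 148 rows (2.69%) had 1 to 3 reads in the jmj7 libraries together, 475 had 4 to 30, 1609 had 31 to 300 and 3174 had more than 300. The members thus form the end of a continuous range. The highest of the near-silent rows, named after the values were seen, was Solyc03g005780.3, with 33995 WT reads and 3 jmj7 reads. Its ratio, with reads divided by the summed size factors, was 8376 (exact 95% counting interval 2866 to 40619). The highest lower bound of a member's fall, 2910.4-fold, lies within this interval, so the values do not rank this row against the members. Solyc02g070970.1 had 19785 WT reads and 1 jmj7 read. Both belong to the chlorophyll a/b-binding protein family. The labels do not say how reads shared by its near-identical copies were counted, so the counts of these single copies are uncertain beyond the interval given.

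**Figure D1:**
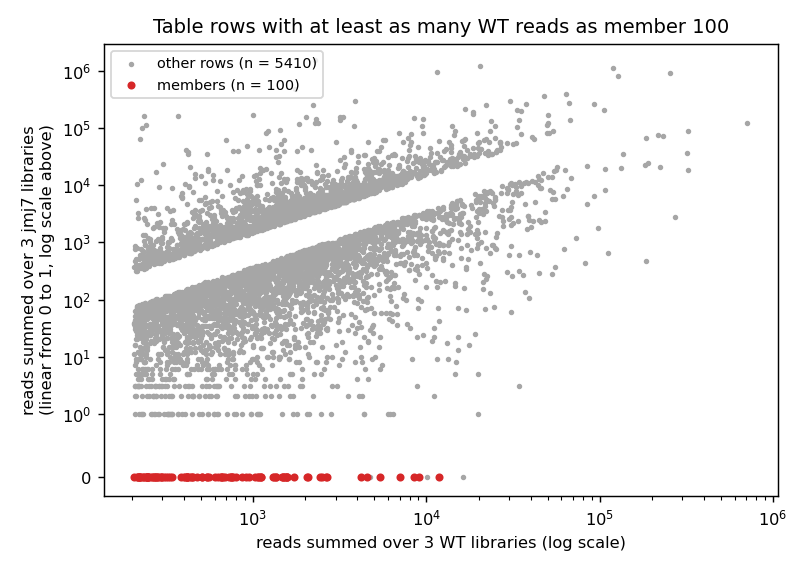
Reads summed over the WT libraries (horizontal, log scale) against reads summed over the jmj7 libraries (vertical, linear from 0 to 1 and log above) for the 5510 table rows with at least 207 WT reads; red points are the 100 members and grey points the other rows. The members lie on the line of 0 jmj7 reads, with 148 rows at 1 to 3 reads just above; the empty diagonal band reflects the authors' selection on fold change.

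The WT levels of the members covered a wide range. Summed reads ran from 207 to 11812 with a median of 542, and the 7 highest members held 42.3% of the 119336 WT reads of the whole set. All 100 together took 0.471% to 0.504% of the table's reads in each WT library. Levels per length, in mean WT FPKM, ran from 1.27 to 124 with a median of 6.97. Over all table rows the median was 5.37 FPKM, and over the other rows with at least 207 WT reads it was 13.5 FPKM. Of the members, 67 reached 5 FPKM, 40 reached 10, 10 reached 50 and 3 reached 100.

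The most abundant member was Solyc10g005320.3, on chromosome 10, with 4131, 3421 and 4260 reads in WT libraries 1 to 3. Its level was 124 ± 8.36 FPKM (SD, n = 3), and it was at least 2910.4-fold lower in jmj7. Every fold of this kind is a lower bound: WT reads divided by the summed deposited size factors, over a floor of 3 reads across the jmj7 group treated in the same way. Solyc05g014000.3 on chromosome 5 followed with 3153, 2633 and 3223 WT reads (87.6 ± 5.86 FPKM, at least 2219.8-fold lower). Solyc02g079510.3 on chromosome 2 had 2791, 2711 and 3029 WT reads and was at least 2102-fold lower; per length, at 104 ± 4.60 FPKM, it stood above the member before it in reads. In each of these the 3 WT libraries lay close together and the jmj7 libraries were all at 0. The files and the reference gene table pair none of the 3 with a name.

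Solyc09g014350.3 (GPAT6), the fourth by reads, belongs to the cutin pathway. GPAT6 encodes a glycerol-3-phosphate acyltransferase, which joins cutin fatty acids to glycerol and so makes the units from which the polymer is assembled. It had 2466, 2054 and 2529 WT reads, a level of 63.3 ± 4.23 FPKM (SD, n = 3), and was at least 1737-fold lower in jmj7. The cutin synthase gene CD1 (Solyc11g006250.2), which links such units outside the cell and was left out of the set by the rule, had 3425, 3046 and 3668 WT reads and none in jmj7. Of 9 epidermis and cuticle genes listed, 5 have a row here and all 5 were lower in jmj7, beside 64.5% of all rows. At 0 reads were 3 of them: GPAT6, a member, with CD1 and Solyc08g081220.1, which the rule left out. These zeros follow from the choice and are not a finding. Without a row were CD2 (Solyc01g091630), CER6 (Solyc02g085870), SHINE3 (Solyc06g053240) and Solyc03g116610. A listed gene without a row, here or in the lists below, was either not selected by the authors or not measured. The listed genes with a row that kept reads were TTS1 (Solyc12g006530.2) and TTS2 (Solyc12g006520.2), triterpenoid synthase genes of the fruit surface wax. TTS1 had 562, 478 and 548 reads in WT and still 103, 60 and 68 in jmj7, and TTS2 had 652, 657 and 792 reads in WT and 15, 9 and 14 in jmj7. The list's genes therefore did not all reach 0. In bulk pericarp, fewer epidermal cells and less RNA per cell cannot be told apart.

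Solyc06g069730.3 (CAB12), the eighth by reads, encodes a chlorophyll a/b-binding protein of the light-harvesting complexes. Its name was looked up after its values were seen. It had 853, 802 and 1000 WT reads (42.3 ± 0.575 FPKM) and was at least 654-fold lower. Of 20 listed photosynthesis genes, 18 have a row and all 18 were lower in jmj7, beside 64.5% of all rows. Of the 18, 1 was at 0 reads, 5 had 1 to 3 reads, and the highest had 8167 reads over the jmj7 libraries. Among all rows of the numbered chromosomes that are not members, 600 of 8545 had 1 to 3 reads. The median log2 fold change of the listed genes in the authors' deposited table was -7.33, beside -1.61 over all its rows. The listed gene at 0, Solyc02g070990.1, was left out by the rule; it had 5136, 4940 and 6211 WT reads. The labels do not say how reads shared by near-identical copies of this family were counted, so the zero of a single copy is uncertain.

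Solyc07g061730.3 (GA2ox5) encodes a gibberellin 2-oxidase, which inactivates the growth hormone gibberellin. It had 335, 312 and 376 WT reads, 12.8 ± 0.122 FPKM (SD, n = 3), and was at least 252-fold lower in jmj7. The gene beside it, GA2ox4 (Solyc07g061720.3), was also without jmj7 reads, on only 12, 17 and 21 WT reads. GA2ox2 (Solyc07g056670.3), at a lower locus number on the same chromosome, had 2435, 2239 and 2685 reads in WT and 1029, 749 and 792 in jmj7. The family thus held both silent and merely lower genes. Of 15 gibberellin and auxin genes listed, 7 have a row, of which 6 were lower and 1 higher, and 2 were at 0 reads.

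Solyc09g008670.3 (TD2 in the reference gene table) encodes a threonine deaminase, known in tomato as an enzyme of defence against leaf-eating insects. It lay near the end of the ranking with 72, 84 and 88 WT reads, 1.89 ± 0.216 FPKM, and was at least 60.1-fold lower. Of 12 defence genes listed, 4 have a row here and all 4 were lower. The 3 at 0 reads were TD2, a member, LAPA1 (Solyc12g010020.2) and Solyc08g074630.2. LAPA1 had only 30, 37 and 31 WT reads, and Solyc08g074630.2 had 10, 3 and 4. Solyc03g020050.3, with 534, 504 and 664 WT reads, had 1 read in jmj7. The remaining lists held no member. Lower genes numbered 4 of 4 with a row for the cell cycle, 4 of 8 for the cell wall, 4 of 6 for ethylene and carbohydrates, 1 of 1 for phloem, 1 of 1 for glandular trichomes and 0 of 1 for MADS-box fruit identity; neither of the 2 seed genes has a row. The trichome gene, with no jmj7 read, was below the level of the set. Among all 8703 rows 64.5% were lower, the background for the counts of lower genes, and 8.05% had no jmj7 read, the background for the counts at 0. Zeros of members and of genes left out by the rule follow from the choice, so that share is no comparison for them.

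The next members by reads have no name in the files or the reference. Solyc04g071800.3 had 1832, 1628 and 1925 WT reads and was at least 1327-fold lower. Solyc07g008210.3 had 1523, 1352 and 1669 WT reads (at least 1119.6-fold lower), and Solyc01g111230.3 had 1344, 1236 and 1624 (at least 1036-fold lower). These, with the first 4, are the 7 members whose bound passed 1000-fold. A gap followed: the eighth member had 2655 summed WT reads against 4204 for the seventh. The ranks from 9 to 20 had summed WT reads between 1498 and 2647 and bounds between 369-fold and 652-fold, a narrow range beside that of the first 7.

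Within these ranks the spread over the WT libraries differed from gene to gene. Solyc02g077330.3 had 900, 821 and 926 WT reads, and Solyc07g064600.3 had 810, 840 and 797. Solyc09g083445.1 had 700, 649 and 731 WT reads, and Solyc04g055260.3 had 678, 622 and 739, at 23.9 ± 0.574 FPKM (SD, n = 3). After division by the size factors, all 4 were lowest in WT library 3, and Solyc07g064600.3 alone of the 4 varied by more than 10% between libraries, with a coefficient of variation of 12.7%. Solyc06g006090.1 had 597, 428 and 555 WT reads, and Solyc10g005690.3 had 443, 485 and 636, and after division by the size factors the low library was the second in one and the first in the other. Solyc10g054840.2 had 515, 494 and 553, Solyc06g008590.3 had 544, 472 and 516, and Solyc06g009770.1 had 484, 475 and 572. Solyc06g074000.1 closed the 20 with 514, 443 and 541 WT reads and a bound of 369-fold. Chromosome 6 gave 4 of the genes of ranks 15 to 20, none with a locus number within 500 of another.

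**Figure D2:**
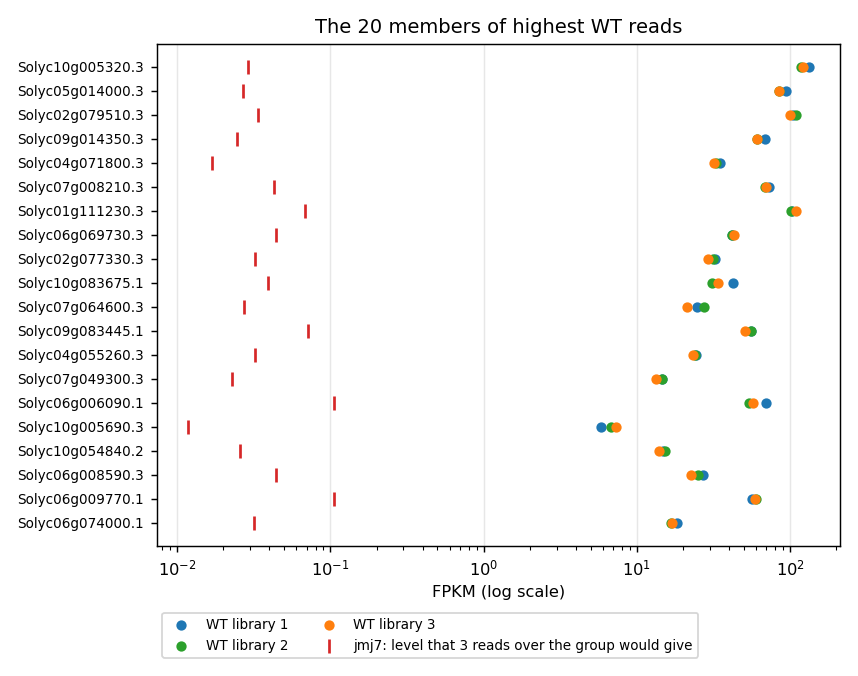
FPKM (log scale) of the 20 members of highest WT reads in each of the 3 WT libraries (points), and the FPKM that 3 reads over the jmj7 group would give for the same gene (red marks). The WT points of each gene lie close together, from about 6.65 FPKM for Solyc10g005690.3 to 124 FPKM for Solyc10g005320.3 on average, and every red mark is at or below 0.105 FPKM.

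At the same level per length a longer gene has more reads, and levels per length gave another order. Gene lengths, recovered as whole bases from counts and FPKM, ran from 162 to 4357 bases among the members with a median of 1296.5, below the median of 1740.5 bases for the other rows with at least 207 WT reads and of 1587 for all rows. Members under 1000 bases numbered 35, beside 19.1% of those other rows and 26.0% of all rows. The next 100 silent genes had a median length of 1289.5 bases, close to that of the members. Solyc10g005690.3, 3750 bases long, was sixteenth by reads but only at 6.65 ± 0.756 FPKM. In contrast Solyc06g006090.1 and Solyc06g009770.1, both 420 bases long, reached 60.2 ± 8.71 and 58.4 ± 1.38 FPKM. Solyc02g083930.1, the ninth by FPKM and 324 bases long, was the one gene among the 10 of highest FPKM that was not among the 20 of highest reads; it had 395, 317 and 398 WT reads and 54.9 ± 4.62 FPKM. For a short gene the same 0 reads set a looser limit, so the level that jmj7 could still hold ranged from 0.0101 FPKM for the longest member to 0.273 FPKM for the shortest, Solyc12g011410.1, which had 161, 134 and 183 WT reads on 162 bases.

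The lower bounds of the fall had a median of 134-fold. They were at least 100-fold for 62 members, at least 200-fold for 35, at least 500-fold for 13 and at least 1000-fold for 7, down to 51.0-fold for the last. Since jmj7 was at 0 throughout, the bound follows the WT level alone and does not rank the genes by how far they fell. The bound also moved with the scaling of the libraries: its median was 57.0-fold with size factors recomputed over the table and 275-fold with the table's total reads. Leaving out jmj7 replicate 1, the deepest library, gave 79.1-fold. In edgeR's quasi-likelihood test on the whole table, all 100 members were called lower at an adjusted p under 0.05, as were 62.8% of the 7622 rows tested, and nothing is read from this since the rule used the same contrast. With recomputed size factors the calls over the table split into 3368 lower and 3023 higher, against 4785 and 2837 here.

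**Figure D3:**
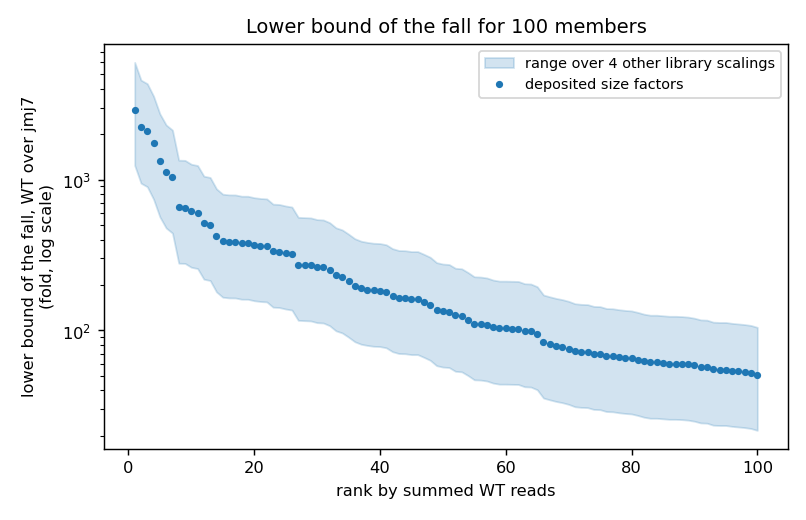
Lower bound of the fall from WT to jmj7 (fold, log scale) for the 100 members in order of summed WT reads. Points use the deposited size factors and run from 2910.4 to 51.0; the band spans the 4 other library scalings tried, which multiply every bound by the same factor, from 0.427 to 2.06.

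The authors' deposited table gives the members log2 fold changes from -13.9 to -8.11, with a median of -9.48, and adjusted p-values of at most 1.04e-10. These sizes exceeded the log2 of the bounds by 2.39 to 2.45 in every member, a nearly constant step. Within the set the authors' deposited table therefore orders the genes nearly as the bounds do, with a few close neighbours exchanged, and its values are not measured distances for genes at 0 reads.

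The 3 WT libraries lay close together for most members. The coefficient of variation of the normalized count (read count divided by the deposited size factor) over the 3 WT libraries had a median of 9.21%, beside 5.71% for the other rows with at least 207 WT reads, which had more reads (median 1415). The steadiest member was Solyc07g053540.1, with 434, 396 and 490 WT reads and a coefficient of 0.510%, followed by GA2ox5 (0.877%) and Solyc02g078620.1 (0.986%). The least steady was Solyc08g042100.3, with 51, 50 and 115 reads in WT libraries 1 to 3 and a coefficient of 41.3%. Next came Solyc12g005820.2, with 116, 98 and 70 reads (30.3%), and Solyc10g078680.2, with 238 reads over the 3 libraries (27.1%). In Solyc08g042100.3 the third library was high and the other two low. By normalized count, WT library 1 was the lowest for 22 members, library 2 for 37 and library 3 for 41, where the other rows with at least 207 WT reads gave 34.0%, 31.7% and 34.3%. A single member had a highest WT library at least 2 times its lowest.

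Silence was also looked up in a jmj7 library that the ranking had not used, though the authors' selection of the table's rows had used all of them and so conditions these counts too. The rule was applied with 2 jmj7 libraries at a time and the reads of the 100 chosen genes were looked up in the other one. A chosen gene with 0 reads there is a member by definition, so the counts at 0 hold no gene from outside the set. They are a description and lend the members no support. With jmj7 library 1 left out, 70 of 100 genes had 0 reads in it, 18 had 1 and 12 had 2 to 4. With library 2 left out, 80 had 0 reads, 13 had 1 and 7 had 2 to 4, and with library 3 left out, 79 had 0, 15 had 1 and 6 had 2 or 3. No gene chosen in this way had more than 4 reads in the library left out, although its WT reads numbered between 266 and 19785. The lowest share at 0 came from library 1, which also had the highest total. An exact 0 thus depended on which libraries were counted.

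**Figure D4:**
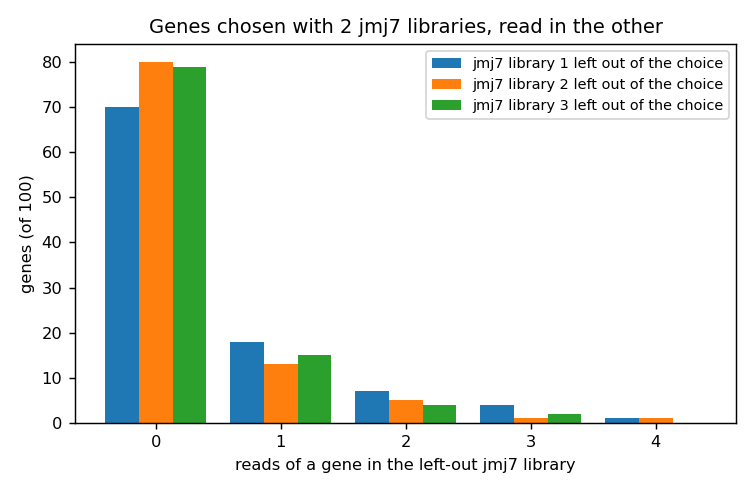
Number of genes (of 100) by their reads in the jmj7 library that was left out when the genes were chosen, for each library in turn. Between 70 and 80 genes had 0 reads in the left-out library, and none had more than 4. The genes at 0 are members by definition.

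By chromosome, the members were spread over all 12 with 1 more (Solyc00g156980.3) on unplaced sequence. Chromosome 2 held the most, 15 members or 1.55% of its 968 table rows. Chromosomes 9, 10 and 7 held 12, 11 and 12 members, or 1.92%, 1.90% and 1.79% of their rows, and chromosomes 3, 8 and 1 held 4, 4 and 7, or 0.426%, 0.592% and 0.667%. Among the next 100 silent genes of the ranking, chromosome 1 had 15 (1.43% of its rows) and chromosome 9 had 4 (0.641%). Over all 701 silent rows, the share of a numbered chromosome's rows lay between 5.82% and 9.76%. Chromosome 9, with the highest share of members, thus had a low share of the genes that followed, and chromosome 1 the reverse.

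**Figure D5:**
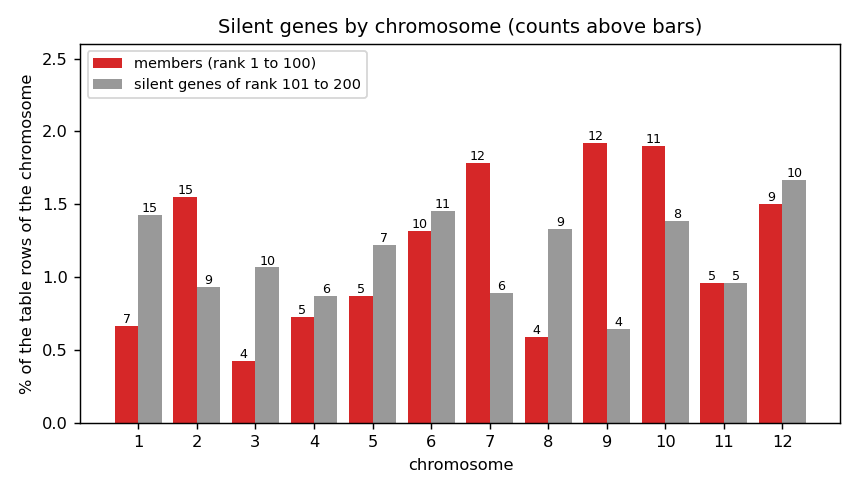
Members (red) and the next 100 silent genes (grey) as a percentage of the table rows of each numbered chromosome, with gene counts above the bars. Members made up 0.426% (chromosome 3) to 1.92% (chromosome 9) of the rows, and the next 100 genes 0.641% on chromosome 9.

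Members did not form long runs of neighbours. With locus numbers within 100 of each other, 8 members had another member nearby, in 4 pairs and no run of 3 or more; among the next 100 silent genes the number was also 8. At shorter distances the members had fewer, 2 beside 4 genes within 10 and 4 beside 8 within 50. Within 200 it was 15 members beside 12 genes, and within 500 it was 30 beside 21. One pair had directly successive numbers, Solyc02g079510.3 and Solyc02g079520.2 on chromosome 2. Solyc02g079520.2 had 461, 420 and 476 WT reads (33.1 ± 1.72 FPKM, at least 334-fold lower). The gene before them, Solyc02g079500.4, had 37272 WT reads and kept 136 in jmj7. The row before that, Solyc02g079490.3, went the opposite way, with 4 WT reads and 2277 in jmj7. The other rows within 100 of the pair were lower on both sides, among them Solyc02g079540.2 with 1016 WT reads and 55 in jmj7, and Solyc02g079430.3 with 251 and 2.

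The other pairs enclosed rows that were not silent or lay in mixed company. Solyc05g009950.3 (435, 385 and 530 WT reads) and Solyc05g009990.3 (271, 242 and 231) had no table row between them, yet Solyc05g009920.3 and Solyc05g009910.3 just before were higher in jmj7. Solyc07g049300.3 (573, 539 and 602 WT reads) and Solyc07g049370.2 (86, 75 and 99) enclosed Solyc07g049310.3, which had 834 WT reads and 232 in jmj7. Solyc02g077330.3 (900, 821 and 926 WT reads) and Solyc02g077430.3 (144, 124 and 149) enclosed Solyc02g077370.1, which kept 4 jmj7 reads of 978 in WT. The files do not say whether these pairs are similar copies.

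Rows next to a member were more often lower than the table at large, at the shortest distance; no test of this was made. Of the 72 rows that are not members and have a locus number within 10 of one, a distance looked at after the data were seen, 57 (79.2%) were lower in jmj7 and 13 (18.1%) had no jmj7 read. Over all other rows of the numbered chromosomes the shares were 64.1% and 6.94%. Counted as pairs, with the 2 successive members as each other's neighbours, 79.7% of 74 were lower and 20.3% had no read. For the next 100 silent genes, counted in the same way, the shares were 91.2% lower and 23.5% without reads, over 68 pairs. For the 3375 other lower rows with at least 207 WT reads they were 72.9% and 9.03%, and for the 2031 higher rows 48.1% and 4.23%. Within 100 the shares drew together, at 67.8% lower for members, 67.0% for other lower rows and 60.5% for higher rows. Adjacent rows of the table at large thus also tended to share a direction. Among the silent neighbours were Solyc10g007090.3 (130 WT reads) beside Solyc10g007080.3, and Solyc04g053000.1 (183) beside Solyc04g053010.1. In a further case Solyc10g083675.1, the tenth member, with 957, 656 and 883 WT reads, lies 5 numbers from Solyc10g083670.2, which had 4378 WT reads and 1 in jmj7. No source used here gives the strand setting of the authors' counting, so reads of overlapping neighbours cannot be told apart, and their part in these shares was not tested.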

How the data were processed

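Read counts per gene and library were deposited by the authors, per the file headers, from an alignment with HISAT2, per the submitters' processing notes; no source used here gives its version, the genome build, the counter or the strand. The deposited table also holds FPKM per library, a signal (normalized count) that is the read count over a library's size factor, the authors' log2 fold change, and p-values with adjusted p-values, per the file headers. FPKM gave every gene a whole length (within 0.001 bases) and every library a whole total, taking the smallest such solution (75 bases for the shortest gene). The members and gene lists were chosen with earlier results of these data known.

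The test on counts was the quasi-likelihood test of edgeR 4.0.16 (R 4.3.3; filterByExpr minimum count 10, deposited size factors, Benjamini-Hochberg), with DESeq2 1.42.0 and other scalings as alternatives; the fit was tested on simulated data. Bounds use a floor of 3 reads over the jmj7 group. Errors are SDs (n = 3 libraries). Replicate pairs differed by more than sampling noise (chi-square per gene 1.63 to 3.63). Named were the 20 members of highest reads, the 10 of highest FPKM, listed members, the 3 highest and lowest in variation, and the 2 genes on each side of the edge of the choice; neighbours, CAB12 and near-silent rows were named after their values were seen. Symbols come from lists of 105 identifiers written from general knowledge, printed only where the RefSeq gene table (assembly SLM_r2.1) holds the symbol on that chromosome in compatible order; 5 contradicted symbols were dropped. No sequences are printed, as no table of them was used here.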

Additional observations from a re-analysis of the deposited data

How the results depend on the processing

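The median lower bound of 134-fold became 106-fold with TMM scaling, 57.0-fold with recomputed size factors, 275-fold with the table's total reads, 196-fold with the totals recovered from FPKM (added after the data were seen) and 44.5-fold with a floor of 3 reads in each jmj7 library. Leaving out 1 library in turn gave 79.1-fold to 134-fold; without a jmj7 library fewer reads set the floor. The choice of members kept 100 of 100 when ranked by normalized count, 78 when ranked by FPKM and 46 when up to 3 jmj7 reads were allowed, since rows with 1 to 3 reads then take places; without 1 library it kept 70 to 99. Members with another nearby numbered 2, 4 and 15 for locus windows of 10, 50 and 200, and 15 for the ranking by FPKM, against 8. The calls over the table ranged from 4699 to 5616 lower under the other settings apart from recomputed size factors (3368), and all 100 members were called in each, which follows from their choice. The median log2 fold change over the table was -1.43, and -1.09, -0.14, -2.53 and -2.02 with TMM, recomputed, table-total and FPKM-total scaling. Replicate numbers did not pair the samples (correlations of deviations -0.0208, 0.0196 and -0.00653 over 5484 genes), and the replicate block left the count at 4785. Depth limits how far 0 can be told from a few reads.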
